A study of Mus musculus with 32 samples.

Results

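Clone 4, a pre-B-cell clone grown from a single cell, was sampled 24 h and 36 h after IL-7 had been taken away, and its rearranged Igκ light-chain messages were counted by V segment and by parental allele. These 2 libraries are 2 of the 32 samples of the series and 2 of its 10 rearrangement libraries. They were taken by their labels from a time course of 4 libraries of the same clone, which also holds 12 h and 48 h. The clone came from bone marrow of adult female F1 hybrids of C57BL/6 (B6) and castaneus (Cast) mice and had been kept on ST2 stromal feeder cells with IL-7, the cytokine that holds pre-B cells in division. All libraries named here share that genotype and that withdrawal of IL-7, so no library of undifferentiated cells stands beside them. Each time is represented by 1 library of 1 clone, and no feature is replicated within a time. A further library of clone 4 at 48 h, made with a panel of other clones, is used here to show how far 2 libraries of the clone at 1 time can lie apart. Whether it came from a separate culture is not given in the sources used here.

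The Igκ locus on mouse chromosome 6 carries a long array of Vκ segments upstream of a few Jκ segments and the constant exon Cκ. The RAG recombinase cuts at a recombination signal beside each segment, made of a heptamer, a spacer and a nonamer, and joins 1 Vκ to 1 Jκ. A Vκ that lies in the orientation of Jκ joins by deletion of the DNA between them, and a Vκ in the opposite orientation joins by inversion. An allele that has been joined once can be rearranged again, with a V segment that remains and a Jκ further downstream. As κ messages were primed from Cκ, a read reports a rearranged and transcribed allele, and more cells with a join cannot be told apart from more RNA per cell.

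The table counted 112 Vκ segments on each allele. Of these, 111 were matched by symbol to the GENCODE M21 annotation of GRCm38 (mm10), where they span chr6:67555497-70704177, while the first Jκ, Igkj1, begins at chr6:70722562. Igkv8-23-1 was not matched. By position the 111 were divided into a J-distal, a middle and a J-proximal part of 37 segments each. In the annotation 41 segments lie on the plus strand (deletion) and 70 on the minus strand (inversion), and 98 are functional genes against 13 pseudogenes.

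The recombination signals beside the segments on which the results turn are printed here, because the signal is the part of each V that the recombinase contacts. They were read 5′ to 3′ on the coding strand of the segment from the GRCm38 reference, which is C57BL/6J, so they stand for the B6 allele only. Capitals mark the heptamer at the start and the nonamer at the end, and the spacer is in lower case. The first pair belongs to the 2 segments with the most B6 reads at 24 h, the next 4 to the segments first read at 36 h on B6 with the most reads, and the last 4 to those first read at 36 h on Cast.
Igkv19-93, chr6:68736269-68736296, minus strand: CACAGTGatacaaatcataACAAAAACC
Igkv4-57, chr6:69575947-69575974, minus strand: CACAGTGctatagactggaACAAAAACC
Igkv8-19, chr6:70340848-70340875, minus strand: CACAGTGcttcagcctcctACACAAACC
Igkv1-132, chr6:67760414-67760441, plus strand: CACAGTGatacagaccctaTCAAAAACT
Igkv17-121, chr6:68037319-68037346, plus strand: CACAGTGctatgtcctcttACAGAAACC
Igkv13-84, chr6:68940068-68940095, plus strand: CACAGTGatacaagccatgACATAAACC
Igkv6-20, chr6:70335813-70335840, minus strand: CACAGTGcttcagcctcccACATAAACA
Igkv5-43, chr6:69823327-69823354, minus strand: CACAGTGatgcagaccataGCAAAAATC
Igkv1-110, chr6:68271268-68271295, plus strand: CACAGTGatacagaccctaACAAAAATA
Igkv6-32, chr6:70073996-70074023, minus strand: CACAGTGcttcagcctcctACACAAACC

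All 10 carry the heptamer CACAGTG, and Igkv8-19 and Igkv6-32 have the same signal letter for letter. The 2 segments that led the B6 allele at 24 h carry the nonamer ACAAAAACC, and none of the other 8 does. That contrast depends on where the lists stop. Of the next B6 segments at 24 h, Igkv4-69 carries it and Igkv1-88, Igkv12-46 and Igkv12-44 do not. Igkv16-104, the next segment first read on B6, carries it. The last 4 printed were chosen by Cast reads but are shown with B6 letters. Over the 107 segments for which a signal was found at the end of the annotated gene, 87.9% held CACAGTG and 35.5% held ACAAAAACC, in coding orientation at the expected spacing. Among the 32 segments with a signal that were first read at 36 h on either allele, 30 held the heptamer and 7 (21.9%) the nonamer, while among the 70 read at 24 h on either allele the counts were 63 and 24 (34.3%). Some segments belong to both sets, the shares are descriptions without a test, and a missing match says only that these letters do not stand in that window.

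The 24 h library held 1174 allele-assigned reads, of which 933 were from B6 and 241 from Cast. At 36 h there were 7092 reads, 5402 from B6 and 1690 from Cast, which is 6.04 times the depth. With so few reads at 24 h, the limit that a count of 0 allows (3 reads) was 0.256% of the library, against 0.0423% at 36 h. Within Cast alone that limit was 1.24% at 24 h and 0.178% at 36 h, so weakly used Cast segments were barely measurable at the earlier time. The 12 h and 48 h libraries of the time course held 1737 and 10958 reads, and the 48 h library of the clone panel 64672. Reads were amplified without molecular identifiers, so every interval and limit given here covers counting error only, and every exact test compares 2 libraries and not 2 conditions.

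The Cast allele gave 20.5% of the reads at 24 h (95% Wilson interval 18.3 to 22.9%) and 23.8% at 36 h (22.9 to 24.8%). The step was 3.30 percentage points (Fisher's exact test, two-sided, p = 0.0139). It turned the other way when Igkv19-93, the most used segment, was left out of both alleles, at 28.4% and 26.7% (exact p = 0.329). The remaining Vκ array therefore showed no detectable move towards Cast between these libraries. The Cast share was 15.8% at 12 h, 23.3% at 48 h in the time course and 28.2% in the panel library at 48 h, so the 2 libraries at 48 h lay further apart than 24 h and 36 h did.

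At 24 h the B6 repertoire was dominated by Igkv19-93, a functional gene at chr6:68736297-68736780 in the J-distal part of the array, which joins by inversion. It took 361 of the 933 B6 reads. Its percent of the library was 58.6%, 30.7%, 13.8% and 8.09% in the 4 libraries of the time course in order, with 3.69% in the panel library. The 24 h interval (28.2 to 33.4%) and the 36 h interval (13.1 to 14.7%) did not meet, and the fall was 0.450-fold (0.399 to 0.509, Fisher's exact test with Benjamini-Hochberg adjustment, adjusted p = 1.41e-39). Measured within the B6 allele it went from 38.7% to 18.2%. The difference between the 2 libraries at 48 h was of the same size (2.22-fold between 24 h and 36 h, 2.19-fold between the 48 h libraries), although each time of the course stood below the one before it. On Cast Igkv19-93 was a modest segment with 14 reads at 24 h and 77 at 36 h, or 1.19% and 1.09% of the library (adjusted exact p = 0.920), so the 2 copies of the segment in the same cells differed widely in use at both times.

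Behind Igkv19-93, the most read B6 segments at 24 h were Igkv4-57 (5.28% of the library), Igkv1-88 and Igkv4-69 (2.90% each) and Igkv12-46 and Igkv12-44 (2.30% each). At 36 h the order behind it was Igkv5-43 (4.24%), Igkv4-50 (3.24%), Igkv12-44 (3.14%) and Igkv5-48 (2.89%). The 5 leading B6 segments together held 55.5% of the B6 reads at 24 h and 35.9% at 36 h. On Cast no segment stood out in this way at 24 h. Igkv1-135 and Igkv10-96 (26 reads and 2.21% each), Igkv11-106 (25 reads, 2.13%) and Igkv19-93 led at 24 h, before Igkv2-109, Igkv1-88, Igkv12-46 and Igkv5-37, which tied at 11 reads (0.937%). At 36 h the order was Igkv11-106 (2.90%), Igkv1-135 (2.20%), Igkv5-48 (1.21%), Igkv14-111 (1.11%) and Igkv19-93 (1.09%). Igkv11-106 is annotated as a pseudogene on the B6 reference and was listed at 0 on B6 in all 5 libraries. Within Cast the 5 leading segments held 42.3% of the reads at 24 h and 35.7% at 36 h.

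Segment by segment, 123 combinations of segment and allele had at least 5 reads over both libraries and were tested against the rest of the library. By Fisher's exact test with Benjamini-Hochberg adjustment (adjusted p under 0.05 and at least 2-fold), 13 of them (10.6%) were higher at 36 h and 3 (2.44%) were lower. At an unadjusted p under 0.05 the counts were 22 and 14. B6 gave 9 of the 13 and Cast 4, from 73 and 50 combinations tested. Across the 69 combinations with at least 3 reads in both libraries the median ratio of 36 h to 24 h was 0.869 (0.966 on B6, 0.690 on Cast). Asking for 3 reads keeps mainly combinations that were high in the thinner 24 h library, so no direction is read from these medians. Of all 123 tested, 79 had the larger percent at 36 h and 44 at 24 h. These calls rest on counting error alone. When the spread between the 2 libraries of clone 4 at 48 h was put in (SD 0.929 on the log2 scale, or 1.90-fold, over 98 combinations with at least 20 reads in each), a log-ratio test called 0 in either direction, with 3 at an unadjusted p under 0.05. Taken singly, 14 of the 16 called combinations changed by a larger fold between 24 h and 36 h than between the 2 libraries at 48 h, and Igkv10-96 on Cast did not. The 16 were picked by their fold from 24 h to 36 h, so nothing is read from this count. Igkv19-93 on B6 was nearly tied (2.22-fold and 2.19-fold). Igkv8-19 on B6 had no read at 24 h, and its lower bound cannot be ranked against the 48 h difference.

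**Figure D1:**
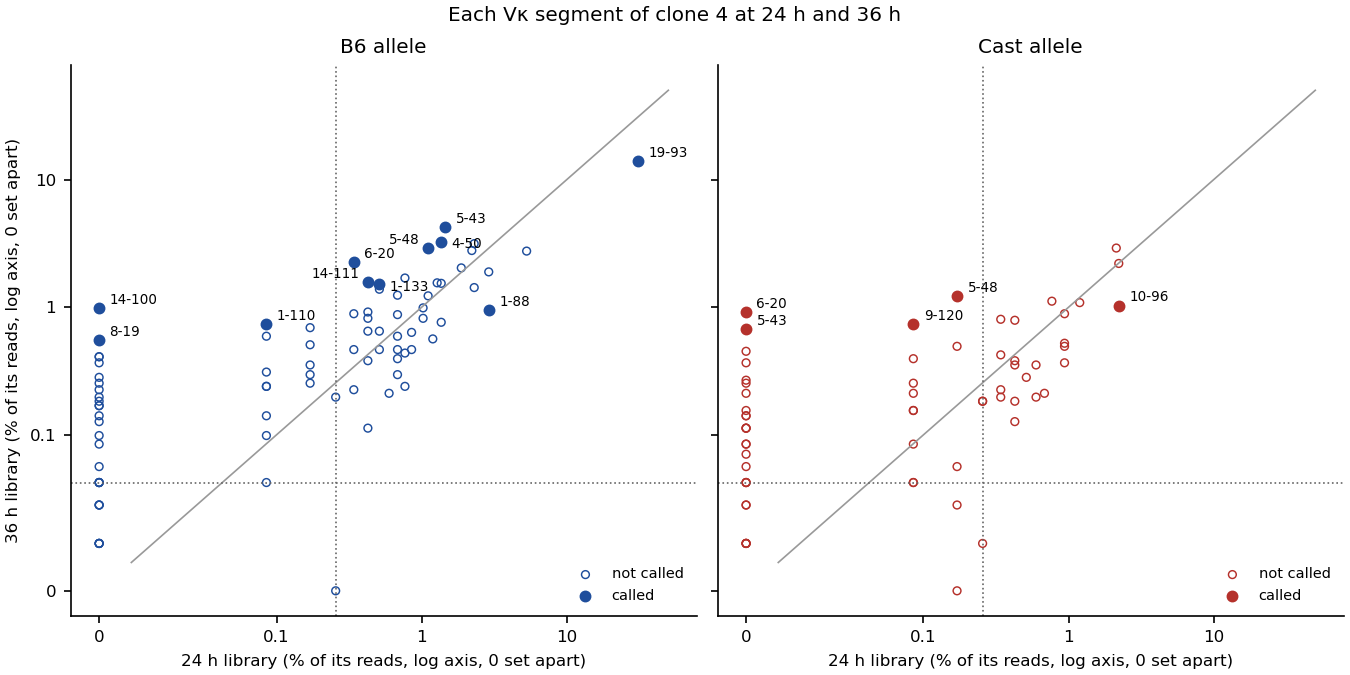
Percent of library reads at 24 h (x) and 36 h (y) for each segment, B6 at left and Cast at right, on log axes with 0 set apart at the edge. Filled points were called, the diagonal marks equal percent and dotted lines mark 3 reads. Igkv19-93 on B6 lies below the diagonal at 30.7% and 13.8%, while Igkv6-20, Igkv5-43 and Igkv5-48 lie above it on both alleles.

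Igkv5-43, Igkv5-48 and Igkv6-20 were called higher at 36 h on both alleles. They are functional genes that join by inversion, in the J-proximal part (Igkv5-43 and Igkv6-20) or in the middle part (Igkv5-48). Igkv5-43 (chr6:69823355-69823943) had 10, 17, 301 and 622 B6 reads at 12, 24, 36 and 48 h. In percent of the library it moved from 1.45% at 24 h to 4.24% at 36 h on B6, 2.93-fold (1.80 to 5.10, adjusted p = 2.24e-05 by Fisher's exact test). Its Cast copy had no read at 12 h or 24 h, 48 at 36 h and 90 at 48 h. When 3 reads are set for 0 it was 2.65-fold higher at 36 h (adjusted exact p = 0.0122). On B6 the segment then differed 2.72-fold between the 2 libraries at 48 h (5.68% and 2.09%), which is close to its change from 24 h to 36 h.

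Igkv6-20 (chr6:70335841-70336507) had 0, 4, 159 and 310 B6 reads at 12, 24, 36 and 48 h. Its B6 share went from 0.341% at 24 h to 2.24% at 36 h, 6.58-fold (2.52 to 24.4, adjusted p = 2.24e-05, Fisher's exact test), against 2.83% and 2.36% in the 2 libraries at 48 h. On Cast it had no read before 36 h, then 65 reads, followed by 39 at 48 h. With 3 reads set for 0 it was 3.59-fold higher at 36 h (adjusted exact p = 0.00167). The 2 libraries at 48 h differed 2.29-fold on Cast (0.356% and 0.813%). With the spread between those libraries put in, Igkv6-20 was not called on either allele. Igkv5-48 (chr6:69726573-69727138) had 3, 13, 205 and 325 B6 reads and 2, 2, 86 and 119 Cast reads at the 4 times. The ratio of 36 h to 24 h was 2.61 on B6 (1.49 to 4.99, adjusted p = 0.00249) and 7.12 on Cast (1.91 to 59.7, adjusted p = 0.00375), both by Fisher's exact test. The 2 libraries at 48 h differed 1.12-fold on B6 and 1.09-fold on Cast for Igkv5-48, less than its own change from 24 h to 36 h. With the spread between those libraries over all segments put in, it too was not called on either allele.

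The other 6 B6 segments called higher came from all 3 parts of the array. Igkv14-100, Igkv14-111, Igkv1-110 and Igkv1-133 are J-distal and join by deletion, Igkv4-50 lies in the middle part and Igkv8-19 in the proximal part, both joining by inversion. Igkv14-100 had 1 B6 read at 12 h, none at 24 h, 70 at 36 h and 92 at 48 h, at least 3.86-fold higher at 36 h (adjusted p = 0.000798, Fisher's exact test). Igkv14-111 had 11, 5, 112 and 203 B6 reads, a rise from 0.426% to 1.58% of the library, 3.71-fold (1.54 to 11.6, adjusted exact p = 0.00833). Igkv1-110 had a single B6 read at 24 h and 52 at 36 h, a ratio of 8.61 whose interval reached from 1.48 to 346 (adjusted exact p = 0.0357). Its size is therefore poorly known although its direction passed the test. Igkv1-133 went from 6 to 107 B6 reads (2.95-fold, adjusted exact p = 0.0355) and Igkv4-50 from 16 to 230 (2.38-fold, adjusted exact p = 0.00255). Igkv8-19 had none before 36 h and then 39 and 121 reads at 36 h and 48 h. With 3 reads set for 0 it was 2.15-fold higher at 36 h (adjusted exact p = 0.0357), and it differed 4.18-fold between the 2 libraries at 48 h. On Cast the fourth call was Igkv9-120, with 3, 1, 52 and 51 reads at the 4 times, a ratio of 8.61 (1.48 to 346, adjusted exact p = 0.0357).

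Only 3 combinations were called lower at 36 h, and all 3 join by inversion, as do 70 of the 111 annotated segments. Beside Igkv19-93 these were Igkv1-88 on B6 and Igkv10-96 on Cast. Igkv1-88 (chr6:68862265-68863031), in the middle part, took 34 B6 reads at 24 h and 67 at 36 h, so its share fell from 2.90% to 0.945%, 0.326-fold (0.213 to 0.508, adjusted p = 2.24e-05 by Fisher's exact test). At 12 h it had 10 reads, or 0.576%, so it stood higher at 24 h than at either neighbouring time. Igkv10-96 (chr6:68631963-68632442), in the distal part, was the leading Cast segment of the 12 h library with 151 of its 274 Cast reads. It then had 26, 73 and 99 reads at 24, 36 and 48 h, and its share fell from 2.21% to 1.03% of the library between 24 h and 36 h (0.465-fold, 0.293 to 0.758, adjusted exact p = 0.0122). Igkv4-57 on B6 passed the exact test but not the 2-fold minimum, at 5.28% and 2.75% (0.521-fold, adjusted p = 0.000400).

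A drop in a segment of such size raises the percent of everything else. The fall of Igkv19-93 on B6 alone would lift every other combination 1.24-fold. With Igkv19-93 left out of both libraries, 7 segments were called higher, all of them among the 13, and 8 lower. The 7 were Igkv5-43, Igkv5-48 and Igkv6-20 on both alleles and Igkv14-100 on B6. Igkv1-110, Igkv1-133, Igkv14-111, Igkv4-50 and Igkv8-19 on B6 and Igkv9-120 on Cast were no longer called, and Igkv9-120 also fell short in percent of the allele (adjusted exact p = 0.0604). Their fold changes without Igkv19-93 stayed above 1. On the log2 scale they were 2.78 for Igkv1-110 and Igkv9-120 (adjusted exact p = 0.0780), 1.57 for Igkv14-111 (0.0509), 1.24 for Igkv1-133 (0.145) and 0.93 for Igkv4-50 (0.0509). For Igkv8-19, with 3 reads set for 0, the log2 value was 0.78 (0.0643). The 6 added to the lower calls were Igkv12-46, Igkv12-89, Igkv4-54 and Igkv4-57 on B6 and Igkv1-133 and Igkv1-88 on Cast.

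Further segments named from the study's text or primer list were not called. Igkv6-32 was a steady B6 segment with 22 reads at 24 h and 144 at 36 h (1.87% and 2.03%, ratio 1.08, adjusted exact p = 0.937) and was listed at 0 on Cast until 36 h, when it had 26 reads. Igkv2-137 was read on Cast alone in the time course, with 2 reads at 24 h and 35 at 36 h (ratio 2.90, 0.744 to 24.9, adjusted exact p = 0.342). Igkv4-91 had 2 and 25 B6 reads (ratio 2.07, 0.516 to 18.0) and at most 1 Cast read by 36 h. Igkv18-36 had no read on either allele at 24 h or 36 h, and Igkv7-33 had none at 24 h and then 3 on B6 and 8 on Cast. Igkv2-112 and Igkv9-124, whose accessibility in clone 4 the study describes, were added after their values were seen. Igkv2-112 had 1 read on each allele at 12 h, none at 24 h, and 26 B6 and 18 Cast reads at 36 h (adjusted p = 0.144 and 0.265, Fisher's exact test). Igkv9-124 was read on Cast alone in the time course, with 7, 1, 28 and 39 reads at the 4 times (ratio of 36 h to 24 h 4.64, 0.766 to 190, adjusted p = 0.287, Fisher's exact test).

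Segments were taken as first read at 36 h where an allele had no read at 12 h or 24 h and at least 3 at 36 h. This holds for 17 segments on B6 and 19 on Cast, and 3 of them (Igkv13-84, Igkv4-79 and Igkv7-33) appeared on both alleles. As the rule uses the counts at these times, the values that follow are a description. The B6 segments had 3 to 39 reads (median 10), 218 in all, which is 3.07% of the 36 h library and 4.04% of its B6 reads. The Cast segments had 3 to 65 reads (median 8), 290 in all, 4.09% of the library but 17.2% of the Cast reads. Newly read segments thus made up a larger part of the Cast repertoire than of the B6 repertoire, at a 24 h depth that was lower on Cast.

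Depth alone would leave some of these unread at 24 h. Of the 79 B6 segments with at least 3 reads at 36 h, 21 (26.6%) had none at 24 h, where a sample of the 36 h library at the 24 h depth would on average miss 6.07 (SD 1.90). Of the 56 Cast segments, 20 (35.7%) had none, against 7.83 (SD 2.17) missed by such a sample. When each allele was sampled to its own 24 h reads, the expected numbers were 5.74 on B6 and 9.35 on Cast. On both alleles more segments were thus unread at 24 h than such sampling leaves out, 4 of the 21 and 1 of the 20 having been read at 12 h. The 2 libraries at 48 h, whose depths differ 5.90-fold, also went past sampling. Of the segments with at least 3 reads in the panel library, 11 of 101 on B6 and 7 of 74 on Cast had no read in the time-course library, where 2.85 (SD 1.28) and 2.96 (SD 1.45) were expected. An excess over sampling was therefore also present between libraries of the same time. The reverse is less likely to be seen in the deeper 36 h library, and nothing is read from its number: Igkv3-1 on B6 had 3 reads at 24 h and none at 36 h, and Igkv6-25 on Cast had 2 and none.

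The share of samples of the 36 h library at the 24 h depth that would miss a segment is given next, as a description, since it was taken for segments chosen for their 0 at 24 h and treats the 36 h share as known. Igkv8-19 led on B6 with 39 reads at 36 h, and 0.000843 of such samples would hold none of it. Igkv1-132 and Igkv17-121, both J-distal and joining by deletion, had 29 B6 reads each (0.00520 of samples), and Igkv13-84 had 20 (0.0267). The next B6 segments were Igkv16-104 with 16 reads, Igkv1-122 with 13 and Igkv5-37 and Igkv3-7 with 12 each, for which that share lay between 0.0551 and 0.114. At the other end, 4 of the 17 B6 segments had 3 reads at 36 h, and 0.581 of such samples would miss each of them. Of these B6 segments Igkv8-19 was called by the exact test given earlier, and Igkv1-132 and Igkv17-121 (adjusted p = 0.115 each) and Igkv13-84 (0.268) were not.

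On Cast the lowest values were those of 5 segments. Igkv6-20 (65 reads, 7.34e-06 of samples) and Igkv5-43 (48 reads, 0.000164) were followed by Igkv1-110 (32 reads, 0.00301), Igkv6-32 (26 reads, 0.00897) and Igkv13-84 (19 reads, 0.0320). By the exact test Igkv6-20 and Igkv5-43 were called, and the other 3 were not (adjusted p = 0.0959, 0.144 and 0.265). Igkv12-40, annotated as a pseudogene, had 15 reads, Igkv6-29 had 11, and Igkv14-100 and Igkv4-92 had 10 each. For 9 of the 19 Cast segments the B6 copy was read in the 24 h library, and for 4 of the 17 B6 segments the Cast copy was, where 59 of all 112 segments had a B6 read in that library and 39 a Cast read. In Igkv6-32, for example, the B6 allele had 1 read at 12 h and 22 at 24 h and the Cast allele none, and Cast then had 26 at 36 h, 21 at 48 h and 265 in the panel library.

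Most of these segments were read again later. At least 3 reads were counted in the 48 h library of the time course for 16 of the 17 B6 and 16 of the 19 Cast segments, and in the panel library for 17 and 18. As a group they held 3.91% of the 48 h library on B6 and 3.62% on Cast, near their 36 h shares, and 3.87% and 4.40% of the panel library. Single segments went either way. Igkv17-121 on B6 had 29 reads at 36 h and 78 at 48 h (0.409% and 0.712% of each library), whereas Igkv6-20 on Cast had 65 and 39 (0.917% and 0.356%).

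**Figure D2:**
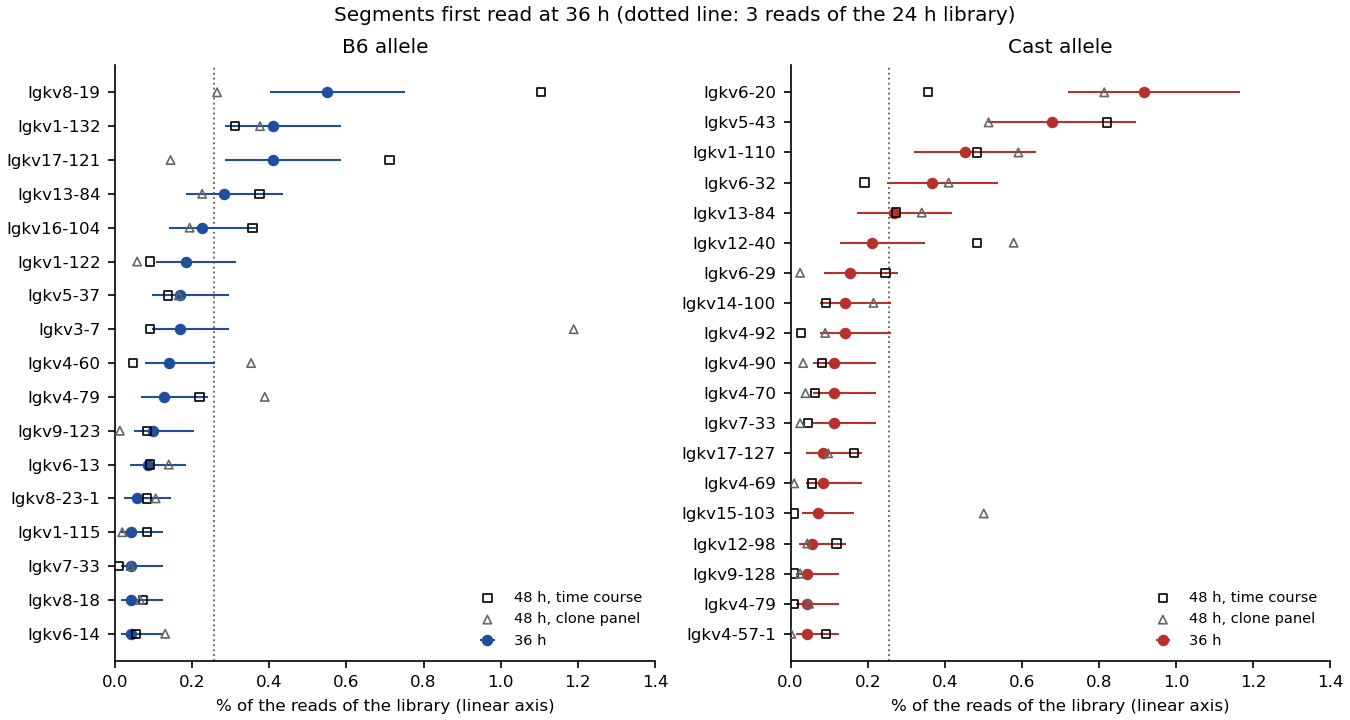
Percent of library reads for the 17 B6 (left) and 19 Cast (right) segments with no read at 12 h or 24 h and at least 3 at 36 h, on linear axes. Filled points with 95% Wilson intervals are 36 h, squares and triangles the 2 libraries at 48 h, and the dotted line is 3 reads of the 24 h library (0.256%). Igkv8-19, Igkv1-132 and Igkv17-121 on B6 and Igkv6-20, Igkv5-43 and Igkv1-110 on Cast have 36 h intervals wholly above that line.

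The new segments came from 11 families on each allele. On B6 they were 3 each of Igkv1 and Igkv8, 2 each of Igkv4 and Igkv6, and 1 each of 7 other families. Of all 112 segments, Igkv1 and Igkv8 hold 11 each, Igkv4 30 and Igkv6 9. Of the 86 B6 segments read at 36 h, they hold 9 each, 26 and 7. On Cast they were 6 of Igkv4, 3 of Igkv6, 2 of Igkv12 and 1 each of 8 other families, where Igkv4 holds 30 of all 112 segments and 18 of the 64 Cast segments read at 36 h. Igkv6 holds 9 and 3 of these, and Igkv12 holds 8 and 6. By position, 6, 3 and 7 of the B6 segments lay in the distal, middle and proximal part, where all annotated B6 segments with at least 3 reads at 36 h numbered 25, 30 and 23. On Cast the split was 7, 6 and 6, of 24, 20 and 12. No part held all of them on either allele, and 2 on each allele are annotated as pseudogenes, as are 13 of the 111 annotated segments. Over both alleles, 18 segments had no read at all before 36 h on either, together 3.61% of the 36 h reads, with Igkv8-19, Igkv13-84, Igkv1-132 and Igkv17-121 the most read.

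Few whole families went from no read to reads. On B6 the families Igkv7, Igkv16 and Igkv17 had no read at 24 h, and had 3, 16 and 43 reads at 36 h, Igkv17 also having 1 read at 12 h. On Cast the families Igkv7, Igkv13, Igkv15 and Igkv17 had none at 24 h, and had 8, 19, 5 and 6 at 36 h. Of these, Igkv17 on B6 passed the test, at 0.606% of the 36 h library (adjusted p = 0.0111, Fisher's exact test). With 3 reads set for 0 it was 2.37-fold higher. The 2 libraries at 48 h differed 2.96-fold in it (1.11% and 0.376%). The families Igkv11 and Igkv18 on B6 and Igkv3, Igkv16 and Igkv18 on Cast had no read at either time.

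Of the 32 combinations of family and allele with at least 5 reads, 7 (21.9%) were higher and 2 (6.25%) lower at 36 h by Fisher's exact test at an adjusted p under 0.05. On B6 the higher ones were Igkv5, Igkv6, Igkv8, Igkv14 and Igkv17, and on Cast Igkv6 and Igkv9. B6 Igkv5 went from 4.00% (3.02 to 5.28%) to 9.15% (8.50 to 9.84%) of the library (2.29-fold, adjusted exact p = 3.52e-09), B6 Igkv6 from 3.58% to 7.08% (1.98-fold, adjusted exact p = 1.79e-05) and B6 Igkv8 from 3.24% to 5.57% (1.72-fold, adjusted exact p = 0.00298). Igkv5-43 lies 899 kb from Igkj1, Igkv6-20 386 kb and Igkv8-19 381 kb. Igkv3, whose 9 segments lie 18.4 to 204 kb from Igkj1, stood at 2.13% and 2.14% on B6 (ratio 1.01, adjusted p = 1 by Fisher's exact test). B6 Igkv14, carried by Igkv14-111 and Igkv14-100, rose 6.03-fold from 0.426% to 2.57% (adjusted exact p = 1.28e-06).

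On Cast, Igkv6 rose from 2 reads to 102 (0.170% to 1.44% of the library, adjusted p = 0.000184, Fisher's exact test), and all 3 Cast members of Igkv6 with reads at 36 h, Igkv6-20, Igkv6-32 and Igkv6-29, were first read then. Cast Igkv9 rose from 0.426% to 1.45% (3.41-fold, adjusted exact p = 0.00823). The lower families were Igkv19 on B6, whose single member is Igkv19-93, and Igkv10 on Cast, which fell from 2.47% to 1.04% (0.422-fold, adjusted exact p = 0.000959) with Igkv10-96. For 8 of the 9 called combinations the fold from 24 h to 36 h was larger than that between the 2 libraries at 48 h. For Igkv17 on B6, whose fold has 3 reads set for 0, the order is not known. The 9 were picked by their change from 24 h to 36 h, so nothing is read from this count. Igkv19 on B6 was nearly tied (2.22-fold and 2.19-fold). Igkv4, the largest family with 30 segments, held 18.5% and 16.3% on B6 and 2.98% and 2.99% on Cast (adjusted exact p = 0.169 and 1). Without Igkv19-93, B6 Igkv8 (1.38-fold, adjusted exact p = 0.145) and Cast Igkv9 (0.626% and 1.71%, 2.73-fold, adjusted exact p = 0.0734) were no longer called higher but kept their direction. B6 Igkv4 (0.706-fold, adjusted exact p = 8.43e-06) and Cast Igkv1 (0.698-fold, adjusted exact p = 0.0498) were then called lower.

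**Figure D3:**
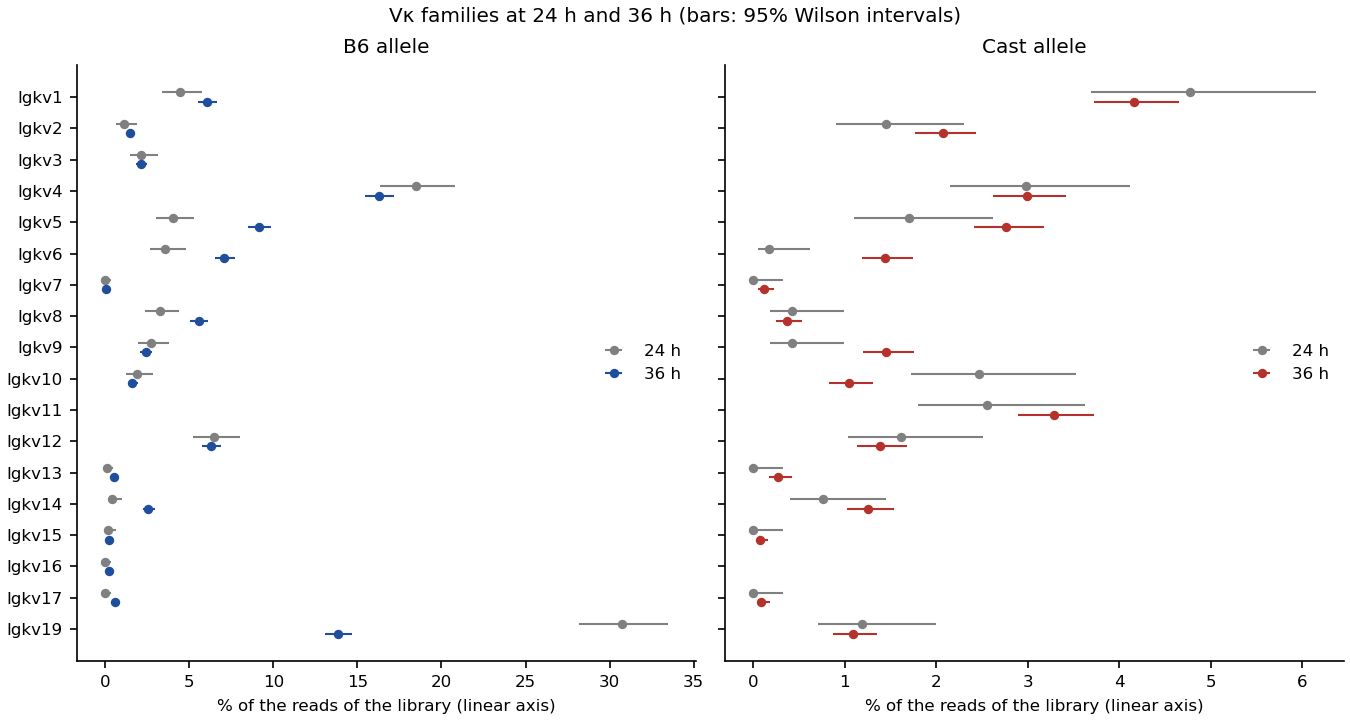
Percent of library reads in each Vκ family at 24 h (grey) and 36 h (coloured), B6 at left and Cast at right on axes of different length, with 95% Wilson intervals. B6 Igkv19 falls from 30.7% to 13.8% and B6 Igkv5 goes from 4.00% to 9.15%, while B6 Igkv4 stays the largest of the other families at 18.5% and 16.3%.

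Along the array, the proximal part took more of the reads on B6 at 36 h, although the Igkv3 segments at its J end showed no detectable change. The proximal part held 11.7% of the library on B6 at 24 h (9.96 to 13.6%) and 20.8% at 36 h (19.8 to 21.7%, adjusted p = 1.10e-13, Fisher's exact test adjusted over 15 tests of position, orientation and gene type). Within the allele this was 14.7% and 27.3%. At 12 h the B6 proximal part held 2.19% of the library, and at 48 h it held 26.2% in the time course and 26.3% in the panel library. In percent of the library the step from 24 h to 36 h was thus far larger than the 0.118 points between those 2 libraries. Within the allele the 2 libraries at 48 h lay further apart, at 34.1% and 36.6%, though closer than 24 h and 36 h did. Without Igkv19-93 it remained, at 17.1% and 24.4% (adjusted exact p = 1.40e-05).

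The B6 distal part moved down from 39.4% to 28.9% of the library (adjusted p = 7.12e-12 by Fisher's exact test), and this direction rested on Igkv19-93 alone: without that segment it rose from 12.6% to 17.7% (adjusted p = 0.000554). The 2 libraries at 48 h differed here by 7.72 points (24.9% and 17.2%). The B6 middle part stood at 28.4% and 26.5% (adjusted exact p = 0.193). Segments that join by deletion went from 9.88% to 17.7% on B6 (adjusted exact p = 8.54e-12), and from 14.5% to 20.8% without Igkv19-93, which itself joins by inversion (adjusted exact p = 6.66e-05). Their B6 share at 48 h was 20.4% and 20.2% of the library, and 26.6% and 28.1% of the allele.

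On Cast no change in the balance of the parts within the allele was detectable from 241 reads at 24 h. The distal part held 61.8% of the Cast reads at 24 h and 60.2% at 36 h, the middle part 26.1% and 24.3%, and the proximal part 12.0% and 15.4% (adjusted p = 0.673, 0.591 and 0.297, Fisher's exact test). In percent of the library the proximal part was 2.47% (1.73 to 3.53%) and 3.68% (3.27 to 4.15%, adjusted exact p = 0.0739). When the array was cut at its midpoint instead, the part near Jκ on Cast did pass, at 4.94% and 7.32% of the library (adjusted exact p = 0.00414), and within the allele it stood at 24.1% and 30.7% (adjusted exact p = 0.0530). Deletional segments on Cast went from 9.20% to 11.9% of the library (adjusted exact p = 0.0142), but within the allele from 44.8% to 50.1% (adjusted exact p = 0.244). Between the 2 libraries at 48 h the Cast share of deletional segments differed by 5.03 points, against 2.74 here, and that of the proximal part by 1.67, against 1.21. Over all 15 tests of position, orientation and gene type, the fold from 24 h to 36 h was the larger in 7. Whether the shift along the array differed between B6 and Cast was not tested.

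**Figure D4:**
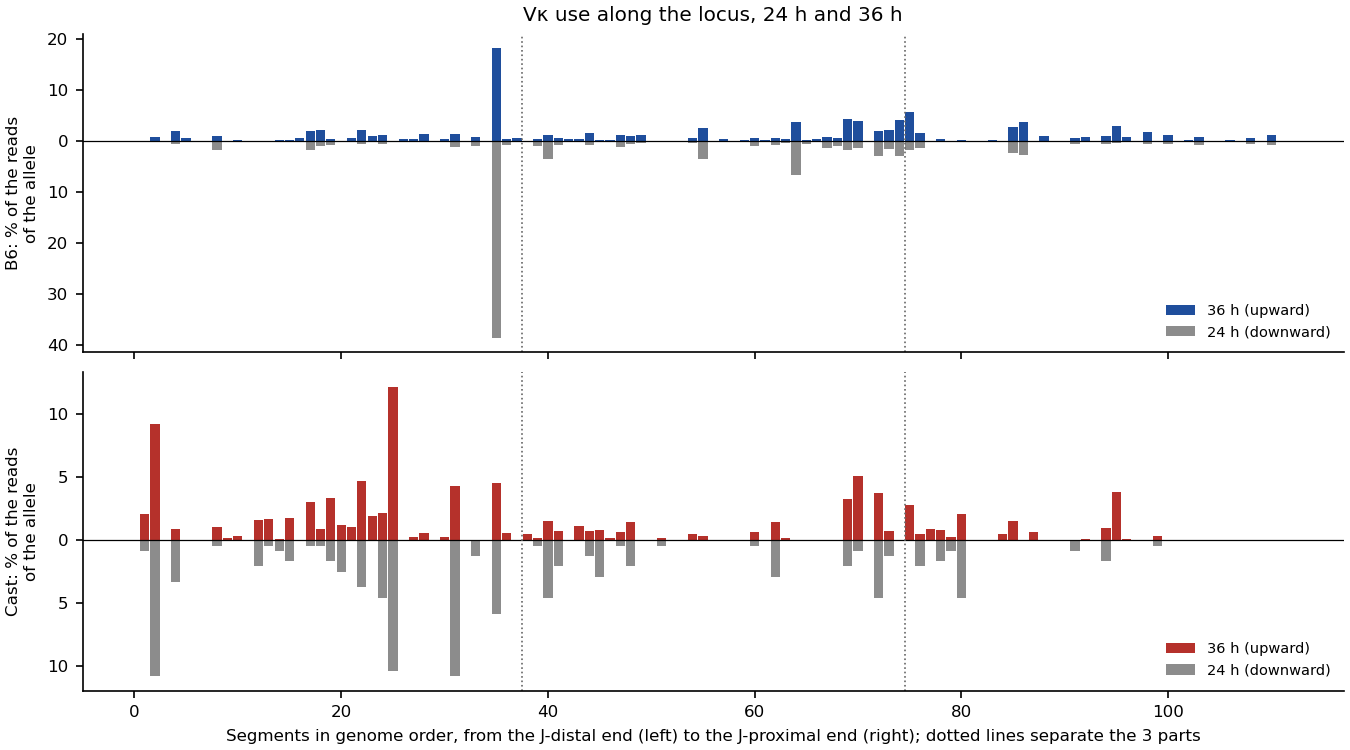
Percent of the reads of each allele at 36 h (upward bars) and 24 h (downward grey bars) for 111 segments in genome order from the J-distal to the J-proximal end, B6 above and Cast below on axes of different length. Dotted lines separate the distal, middle and proximal parts. The single tall B6 bar in the distal part is Igkv19-93, at 38.7% and 18.2% of the B6 reads.

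For each segment the B6 share of its own reads was compared between the times, over 80 segments with at least 10 reads in all. A single segment (1.25%) was called by Fisher's exact test with Benjamini-Hochberg adjustment, Igkv1-133 (chr6:67724902-67725661), a J-distal gene that joins by deletion. It had 6 B6 and 8 Cast reads at 24 h, a B6 share of 42.9% (21.4 to 67.4%), and 107 and 15 reads at 36 h, a share of 87.7% (80.7 to 92.4%, adjusted exact p = 0.0256). At 48 h the share was 83.5% in the time course and 87.2% in the panel library, both close to 36 h, and at 12 h it had no read on either allele. The 24 h value rests on 14 reads. Of the other 79 segments, 15 had no read on either allele at 24 h and so had no share to compare. Over the 65 segments with a read at 24 h, Igkv1-133 was again the single call (1.54%, adjusted exact p = 0.0208), and for the other 64 no change in allelic share was detectable at this depth.

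The number of segments in use was compared after sampling the 36 h library down to the reads of the 24 h library. On B6, 59 segments had a read at 24 h and 74.9 (SD 2.15) were expected at 36 h from 933 reads. On Cast the numbers were 39 and 48.2 (SD 2.48) from 241 reads, and with the alleles added together 70 and 84.9 (SD 2.13) from 1174. The 48 h library of the time course gave 75.3 on B6 and 50.3 on Cast at the same depths, within 1 SD of 36 h on each allele, and the 12 h library 33.6 and 20.6. The panel library at 48 h gave 84.8 on B6 and 49.3 on Cast, so on B6 the 2 libraries at 48 h were themselves well apart. When a segment had to have 3 reads, the B6 numbers were 46 and 58.4 and the Cast numbers 25 and 27.3, so on Cast most of the gain was in segments at 1 or 2 reads. Leaving out Igkv19-93 gave 58 and 71.0 on B6 and 38 and 47.0 on Cast.

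**Figure D5:**
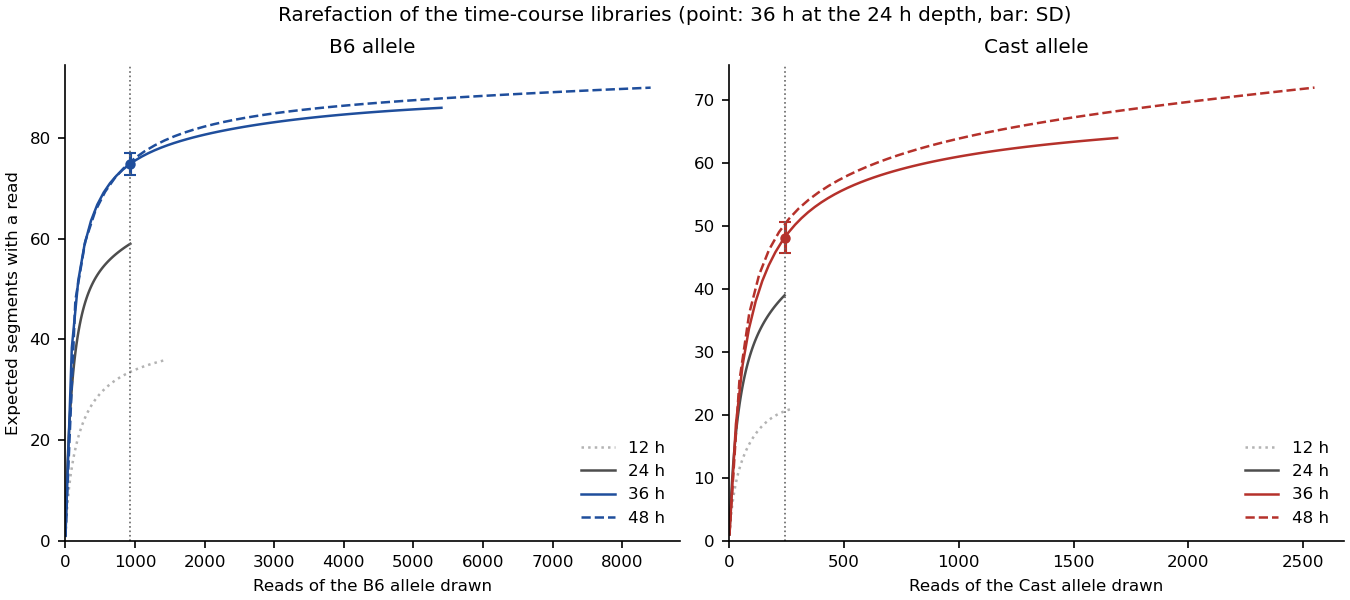
Expected number of segments with a read (y) against the number of reads of the allele drawn (x) for the 4 time-course libraries, B6 at left and Cast at right. The vertical line is the 24 h depth (933 and 241 reads), where the 36 h curve stands at 74.9 and 48.2 segments (point, bar 1 SD) and the 24 h curve ends at 59 and 39.

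The evenness of use went the same way. The effective number of segments (the exponential of the Shannon entropy, which is the number of equally used segments that would give the same diversity) was 18.0 at 24 h and 38.8 at 36 h on B6, and 25.0 and 34.5 on Cast. These were computed at full depth, which lowers the 24 h value to some extent. On B6 much of the difference lay in Igkv19-93, since without it the numbers were 37.6 and 48.9. By the inverse Simpson index, which weighs the most used segments more, they were 6.11 and 19.3 on B6 and 18.3 and 22.8 on Cast.

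The 2 libraries differed by a Bray-Curtis dissimilarity (the share of reads that would have to change segment to make the libraries alike) of 0.342 on B6 and 0.355 on Cast. A sample of the 36 h library at the 24 h depth would differ from the 36 h library by 0.0887 and 0.159. Between 12 h and 24 h the values were 0.350 and 0.568, between 36 h and 48 h of the time course 0.137 and 0.149, and between the 2 libraries at 48 h they were 0.242 and 0.305, where sampling alone would give 0.0331 and 0.0508. The step from 24 h to 36 h thus lay below the preceding one (on B6 by little) and above the next one on both alleles. On Cast it cannot be ranked against the gap between the libraries at 48 h, since sampling takes a larger part of it.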

How the data were processed

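Light-chain messages were primed from Cκ, ligated to an adapter, amplified and sequenced in pairs. Per the authors' methods, reads were trimmed, mapped by Bowtie2 on a joint assembly of both parents (mm10 with Cast polymorphic sites put in) and counted over each Vκ with HTSeq. The deposited values are whole-number counts of reads per segment and allele, without normalization and without molecular identifiers, so amplification can widen the differences between libraries. Reads without a polymorphism cannot be split by allele, and a segment with few such sites can be undercounted on 1 allele. The other 10 count columns of the tables, for other clones and cells, were not used here.

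Percents were taken of the allele-assigned reads of a library, or of an allele where stated. Libraries held 1174 to 64672 reads. Fisher's exact test (two-sided, SciPy 1.17.1) compared 24 h with 36 h for rows with at least 5 reads (10 for the B6 share), with Benjamini-Hochberg adjustment over all rows tested, and a segment was called at an adjusted p under 0.05 and at least 2-fold. A 0 was set to 3 reads for a fold. Such a fold is not a lower limit, as it leaves out the counting error at 36 h. Families are the number before the hyphen in a name, and called without a fold minimum. Ratios have conditional exact 95% intervals and shares Wilson intervals. Rarefaction used the hypergeometric expectation, without drawing. Tests were checked on simulated data. Python 3.11.15, NumPy 2.4.6 and pandas 2.3.3 were used. Positions and signals came from GENCODE M21 and the RefSeq GRCm38.p6 sequence.

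Segments were named by rule: per allele the 5 with the most reads at each time (ties kept), the 6 called with the largest fold in each direction and the 8 first read at 36 h with the most reads, any called for B6 share, and 6 named in the study's text or primer list (Igkv19-93, Igkv4-91, Igkv6-32, Igkv2-137, Igkv18-36 and Igkv7-33). A few more were chosen after seeing their values, where a small count or an alternative turned on them. The comparison and these lists were chosen with earlier results of these data known. Alternatives were other read minimums, percent of the allele, leaving out Igkv19-93, no fold minimum, the spread between the 48 h libraries, a cut at the midpoint of the array and other diversity measures.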

Additional observations from a re-analysis of the deposited data

Results flagged for a closer look

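The B6 share of Igkv1-133 changed between 24 h and 36 h by a test of the change between the alleles (adjusted p = 0.0256, Fisher's exact test with Benjamini-Hochberg adjustment over 80 segments). The B6 reads of this segment went from 6 to 107 and its Cast reads from 8 to 15. In percent of the library that is 0.511% to 1.51% on B6 (adjusted exact p = 0.0355) and 0.681% to 0.212% on Cast (0.310-fold, adjusted exact p = 0.0673). Without Igkv19-93 the Cast copy was called lower and the B6 copy was not called higher. No group of libraries was large enough to look for a single library that stands apart.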

How the results depend on the processing

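No paired analysis was possible because each time was represented by 1 library. With Igkv19-93 left out, the change in Cast share turned from 3.30 to -1.67 percentage points, and that of the distal part from -8.75 to 3.80 points over both alleles, from -10.4 to 5.09 on B6 and from 1.67 to -1.29 on Cast, where it was also -1.59 in percent of the allele. Segments called higher numbered 7 and lower 8 without Igkv19-93, and 0 in each direction with the spread between the 48 h libraries. Segments called lower numbered 5 in percent of the allele and 5 with at least 20 reads. In 36 h reads sampled to the 24 h depth, 5.50 of the 17 B6 and 6.13 of the 19 Cast first-read segments would be expected to hold 3 reads. The gain in sampled segment number fell from 14.9 to 12.7 over both alleles and from 15.9 to 13.0 on B6 without Igkv19-93. Asking for 3 reads gave 12.4 on B6 and 2.31 (from 9.16) on Cast. The ratio of effective numbers went from 1.84 to 1.21 over both alleles and from 2.15 to 1.30 on B6 without Igkv19-93, and to 2.89 over both alleles by the inverse Simpson index. The 36 h library lay at dissimilarities of 0.105 (both alleles), 0.0887 (B6) and 0.159 (Cast) from its own sample at the 24 h depth. On Cast, the change of the proximal part passed when the array was cut at its midpoint (2.38 points, adjusted exact p = 0.00414), and that of deletional segments did not pass without Igkv19-93 (0.515 points) or within the allele (5.25 points). The causes were not tested. The other alternatives run left these counts within 1.5 times and these values on their side of the threshold, but not always the same calls: B6 Igkv1 was also called higher in percent of the allele, as was Igkv6-17 on B6, there and with at least 20 reads, and the lower calls added were Igkv1-133 and Igkv1-88 on Cast in percent of the allele, Igkv12-89 on B6 and Igkv1-133 on Cast with at least 20 reads, Igkv3-1 on B6 with at least 1 read and Igkv4-57 on B6 with no fold minimum. Of alternatives chosen after seeing the data, testing the B6 share over only the 65 segments read at 24 h left 1 call, and the midpoint cut within the allele put the change of the Cast distal part at -6.64 points (adjusted exact p = 0.0530). Depth limits the 24 h library most: a count of 0 among its 241 Cast reads allows up to 1.24% of that allele.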
